A study of Oryctolagus cuniculus with 6 samples.

Results

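The 9 genes described here encode fibronectin (FN1), vitronectin (VTN) and 7 matricellular proteins: periostin (POSTN), tenascin C (TNC), osteopontin (SPP1), thrombospondins 1 and 2 (THBS1, THBS2), connective tissue growth factor (CTGF, now CCN2) and CYR61 (now CCN1). Their probes were found by gene name or full protein name in the array files. The genes, and the lists set beside them below, were chosen with earlier results of these data known. All 9 had a probe, and they took up 26 of the 43603 probes, or 9 of the 10581 gene symbols on the array. Of these genes 5, namely VTN, TNC, SPP1, CTGF and CYR61, rested on 1 probe each. Messenger RNA was read on 6 one-colour rabbit microarrays, 1 for each sample. In 3 female New Zealand White rabbits both common carotid arteries were tied, which raises flow through the basilar artery. In 3 sham rabbits of the same sex and strain the arteries were exposed and not tied. Both groups were killed on day 5, and their basilar arteries were digested for 45 min with elastase and collagenase to free the smooth muscle cells. No age is given for either group.

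Fibronectin and vitronectin are adhesive glycoproteins that cells hold through integrins, in large part by the RGD loop that both carry. Fibronectin is laid down as fibrils in a provisional matrix after vessel injury or remodelling, while most vitronectin circulates in plasma after secretion by the liver. Matricellular proteins are secreted into the matrix but mainly tune how cells adhere, migrate and respond to growth factors, and many are scarce in resting vessels and rise during remodelling. CTGF and CYR61 are also widely used readouts of the YAP and TEAD pathway, which answers to mechanical load.

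The probe sequences bear on how the values can be read. FN1 was read at separate places in its transcript, and the first probe below comes from the upstream group. That group lies where the tenth type III module, the one with the RGD loop, starts. The capitals in this first probe mark the 48 bases that all 5 upstream probes share. The next 2 probes come from the downstream group, near the carboxyl end of the protein, and differ by the single substitution T55C, counted from 1 at the 5′ end of the first and shown in capitals.
FN1 upstream: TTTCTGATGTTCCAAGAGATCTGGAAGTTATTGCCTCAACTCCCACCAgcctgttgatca
FN1 downstream: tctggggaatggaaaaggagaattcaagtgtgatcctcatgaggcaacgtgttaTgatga
FN1 downstream variant: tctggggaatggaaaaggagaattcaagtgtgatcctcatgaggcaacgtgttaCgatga

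THBS1 and THBS2 encode close relatives, and a probe of each covers the same stretch of the coding sequence. The capitals mark the 48 matching bases of the 56 that overlap, an identity of 85.7%. A share of signal from the other gene on these probes cannot be told apart from the gene's own, so levels and changes read by both probes are uncertain to that extent. The printed THBS2 probe is the one used for its gene below. For THBS1 another probe is used, whose sequence was not compared with that of THBS2.
THBS1: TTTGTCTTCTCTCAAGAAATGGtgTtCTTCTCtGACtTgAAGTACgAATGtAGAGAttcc
THBS2: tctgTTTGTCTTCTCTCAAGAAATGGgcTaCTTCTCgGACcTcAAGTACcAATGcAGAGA

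The probes of the CCN genes CTGF and CYR61 share no run longer than 5 bases. They are shown because CTGF passed and CYR61 did not, though the difference between their changes did not pass. The VTN probe is shown because it carries the largest difference and is the only probe of its gene.
CTGF: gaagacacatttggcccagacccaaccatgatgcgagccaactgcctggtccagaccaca
CYR61: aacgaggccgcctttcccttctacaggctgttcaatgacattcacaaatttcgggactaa
VTN: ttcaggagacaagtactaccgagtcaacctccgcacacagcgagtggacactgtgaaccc

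On oryCun2, the build the files use, the FN1 probes lie on the minus strand of chromosome 7, at chr7:156727394-156728584 upstream and chr7:156707078-156707723 downstream. VTN lies at chr19:19747668-19747950 on the plus strand, and the others on the minus strand, SPP1 at chr15:62156573-62156632, CTGF at chr12:122184904-122184963 and CYR61 at chr13:79255912-79255971. The THBS1 probe printed above lies at chr17:32570385-32570439. The files give no position for the probes of POSTN, TNC and THBS2. No annotation of that build was used here, so exons are not named.

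Levels below are log2 signals after subtracting the array's 75th percentile, so 0 is the level of a probe at that percentile. A change is ligated minus sham in log2 with the standard error of the limma fit, and a gene passed when its Benjamini-Hochberg adjusted p over all 27410 tested probes was at or under 0.05. A gene with several probes is stood for by the tested one with the highest mean. No level is compared between genes, because probes differ in how strongly they bind. Across all tested probes the array of sham 1 lay nearer to ligated 1 and ligated 2 than to the other sham arrays. The standard deviation of the log2 differences was 1.05 from ligated 1 and 0.92 from ligated 2, against 1.28 from both sham 2 and sham 3. Sham 2 and sham 3 differed by 0.38. Ligated 3 lay as near to sham 2 (0.96) as to ligated 1 (1.02) or ligated 2 (0.94). Slide and group coincide, each group having a slide to itself, so their effects cannot be told apart here. Of 10 spike-in controls 3 were lower on every ligated array after scaling, with a median difference over the 10 of -0.81. Between 58.7% and 63.7% of probes were well above background on each array and no spot was saturated. Precision is limited by there being 3 arrays in a group.

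Of the 9 genes, 5 rose with ligation and none fell. FN1, VTN, POSTN, THBS2 and CTGF passed, and TNC, SPP1, THBS1 and CYR61 did not. VTN was tested through the ligated group alone, yet it is included in the counts of this paragraph. With the filter on all 6 arrays it was not tested, and 4 of the other 8 passed. Among all 7842 named genes tested, 6.12% passed as higher and 2.7% as lower. Such shares are given for scale and are no test of the set, since its genes were chosen with earlier results known. In 8 of the 9 genes every ligated array read above every sham array, as it did in 17.6% of the named genes tested (17.8% had every ligated array below), and TNC was the exception. Centring the arrays on their medians instead of the 75th percentile left 6 without overlap, SPP1 and CYR61 joining TNC. With normexp background correction no probe of the array passed in limma and none of the 9 genes did, while the same correction without spots of high background called 5 of the 9. The median change over the 9 genes was 1.94, against 0.00 over all tested probes. By probe, 19 of 26 passed and 25 did not overlap between the groups. Among all tested probes 8.37% passed (5.67% higher, 2.69% lower) and 17.5% had every ligated array above. Of the 26 probes 11 were of FN1, and many shared sequence with one another, so the counts are not of separate readings.

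**Figure D1:**
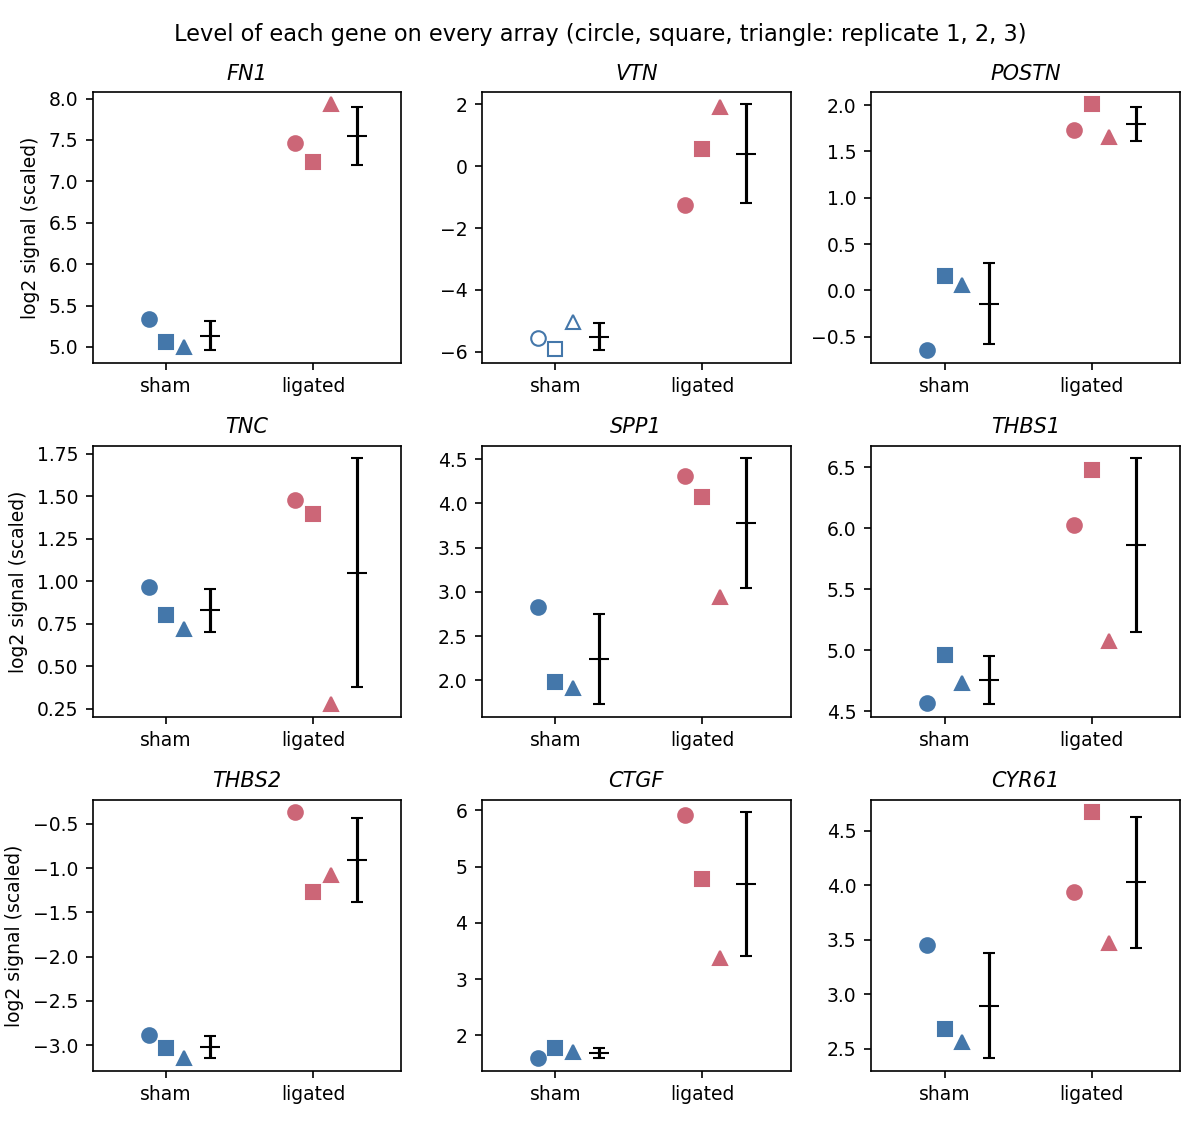
Scaled log2 signal (y axis) of the 9 genes on each of the 3 sham (blue) and 3 ligated (red) arrays, with circle, square and triangle for replicates 1, 2 and 3, open symbols for arrays where the probe was not well above background, and black bars for the mean ± SD. The y axes differ between panels and do not start at 0. FN1, VTN, POSTN, THBS2 and CTGF are wide apart between the groups. For SPP1, THBS1 and CYR61 ligated 3 lies just above the sham range, and for TNC it lies below that range.

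FN1, the adhesive glycoprotein of provisional matrix, rose on all 11 of its probes. The probe that stands for it read 5.33, 5.06 and 5.00 on sham arrays 1, 2 and 3 and 7.46, 7.24 and 7.93 on ligated arrays 1, 2 and 3. The lowest ligated array was far above the highest sham array, and both groups were tight. The change was 2.41 ± 0.24, or 5.32-fold, with a limma adjusted p of 0.00448.

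The FN1 probes fell into 2 groups by place. On the 5 upstream probes the mean level was 2.26, 2.17 and 2.18 in sham and 6.13, 5.17 and 4.54 after ligation. Each of these 5 was highest in ligated 1 and lowest in ligated 3, but they share most of their bases and count as a single reading. On the 6 downstream probes the mean was 4.31, 3.47 and 3.53 in sham and 6.08, 6.34 and 6.12 in ligated. This mean joins unlike patterns, since 4 of the 6 were highest in ligated 2 and lowest in ligated 3, and 2 were highest in ligated 3. These 6 also share bases with their neighbours and are not separate readings. Changes ran from 2.94 to 3.21 upstream and from 2.30 to 2.51 downstream. The difference between the groups' mean changes, 0.67, did not pass an exact two-sided permutation test over the arrays (p = 0.4, adjusted p = 0.4 over 4 such contrasts), in which 3 arrays against 3 cannot go below 0.1. The pair that differs by T55C gave almost the same change, 2.47 for the first and 2.32 for the variant.

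VTN, a plasma and matrix glycoprotein that binds integrins and plasminogen activator inhibitor, went from unread to read. None of the sham arrays read its probe well above background, with values of -5.57, -5.92 and -5.04. All 3 ligated arrays did, at -1.27, 0.56 and 1.91. The groups did not overlap, and the ligated arrays were themselves widely spread, with ligated 1 lowest. Because the sham values are only a bound, the rise is given as a bound of 25.2-fold, which holds for this background step alone. The dimmest signal called above background on any probe of each sham array stood in as the sham level. A higher floor would give a smaller bound. The limma fit gave an adjusted p of 0.00932. The probe passed the filter on dim probes through the ligated group alone, so a difference was built into its being tested. Leaving out ligated 3 lowered the bound to 14.9-fold and leaving out ligated 1 raised it to 44.9-fold. The size depends on the background step, as the fitted change was 2.58 with normexp without spots of high background, which still passed (limma adjusted p = 0.0294), and 1.73 with normexp on all spots, which did not.

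POSTN, which aids collagen crosslinking and marks activated mesenchymal cells, rose on all 4 of its probes. Its standing probe read -0.65, 0.16 and 0.06 on sham arrays 1 to 3 and 1.73, 2.01 and 1.66 on ligated arrays 1 to 3. Sham 1 was the lowest sham array, the ligated arrays lay close together, and the groups were well apart. The change was 1.94 ± 0.27, or 3.85-fold (limma adjusted p = 0.0112), and the other 3 probes gave 1.76 to 1.95. Of the 4 probes 2 overlap in 59 of 60 bases. Without ligated 2 the change was 1.84 and no longer passed (limma adjusted p = 0.0518).

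TNC, a large hexameric glycoprotein of injured and developing vessels, gave no difference that passed. Its single probe read 0.97, 0.80 and 0.72 in sham against 1.48, 1.40 and 0.28 after ligation. Ligated 1 and 2 were above every sham array and ligated 3 below every one. The change was 0.22 ± 0.35 (limma adjusted p = 0.706), and it ran from 0.01 without ligated 1 to 0.61 without ligated 3, in neither case past the threshold.

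SPP1, the phosphoprotein osteopontin that binds integrins and CD44, read 2.83, 1.98 and 1.91 in the sham group and 4.31, 4.07 and 2.94 in the ligated group. The groups were separate by only 0.10, the gap between sham 1, the highest sham array, and ligated 3, the lowest ligated one. Its change of 1.53 ± 0.43 had a limma adjusted p of 0.0794. Without ligated 3 the change was 1.95 and passed (limma adjusted p = 0.0329).

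THBS2, a thrombospondin that inhibits angiogenesis and clears matrix proteases, rose on both of its probes. The standing probe, the one printed above, read -2.89, -3.04 and -3.14 in the sham group and -0.37, -1.27 and -1.07 on the ligated arrays. Sham arrays were nearly level, and all 3 ligated arrays lay far above them. The change was 2.12 ± 0.27, or 4.34-fold (limma adjusted p = 0.00936), and the other probe gave 1.66. With normexp the change of the standing probe was smaller, 1.09 without spots of high background, which passed, and 0.83 with all spots, which did not. Without sham 3 the change was 2.06 and missed the threshold (limma adjusted p = 0.0507).

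THBS1, which activates latent TGF-beta and binds CD47, had 4 probes of which none passed. Its standing probe read 4.57, 4.96 and 4.73 on sham arrays 1 to 3 and 6.03, 6.47 and 5.08 on ligated arrays 1 to 3. Ligated 3 stood only 0.11 above the highest sham array, while ligated 1 and 2 were clearly higher. The change was 1.11 ± 0.37 (limma adjusted p = 0.116), and without ligated 3 it was 1.5 and passed (limma adjusted p = 0.0289). The probe farthest upstream read 1.24, 1.56 and 1.18 in sham and 4.07, 3.07 and 1.82 in ligated arrays, a change of 1.66 ± 0.54, and the other 2 gave 0.91 and 0.98. Neither the difference between the upstream and the standing probe (0.55, exact permutation p = 0.3) nor that between the changes of THBS2 and THBS1 (1.01, exact permutation p = 0.2) passed, both with an adjusted p of 0.4 over the 4 contrasts.

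**Figure D2:**
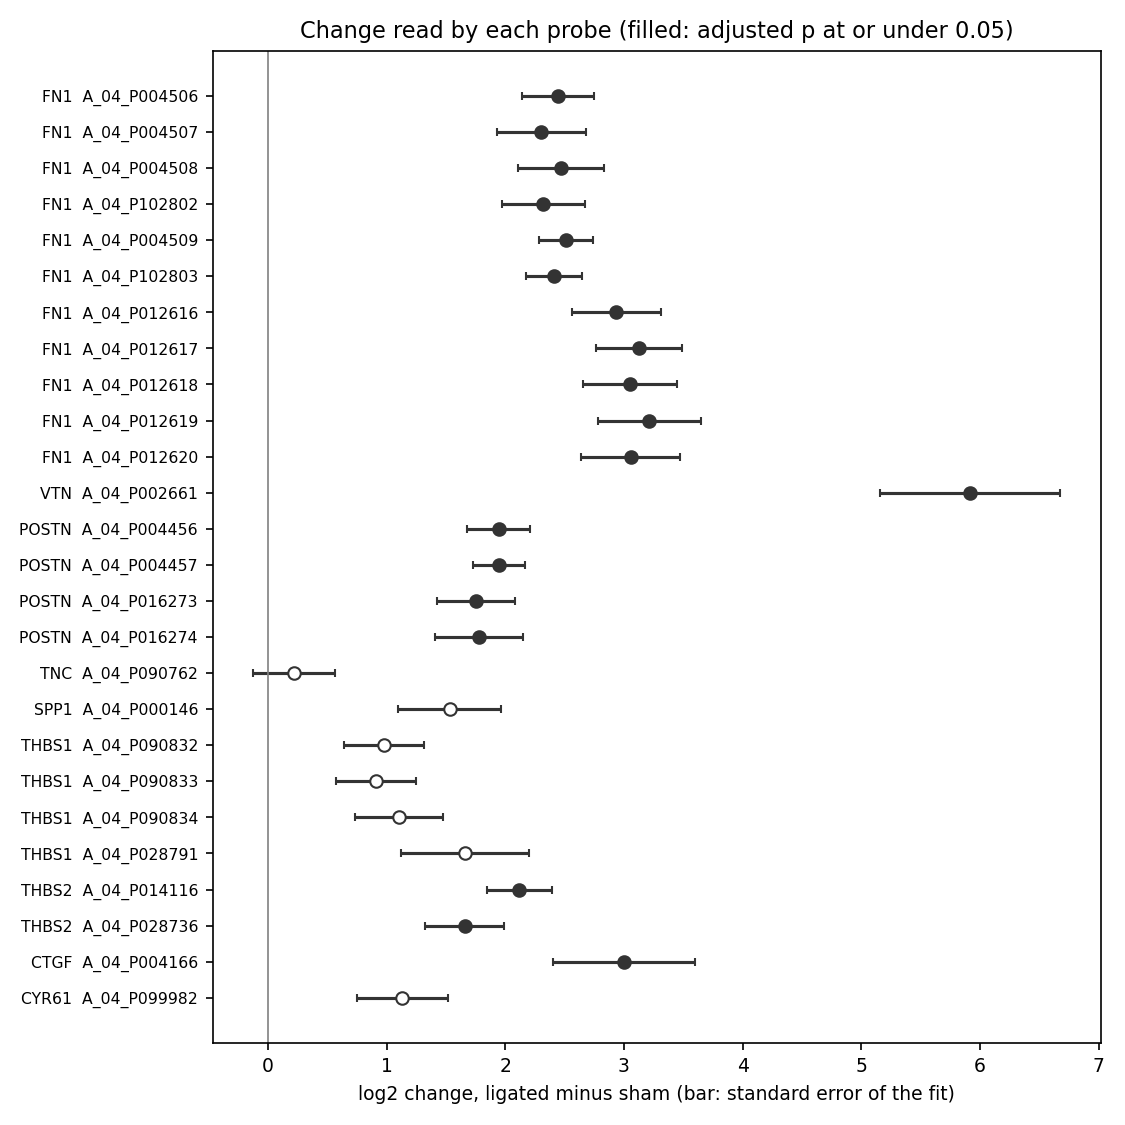
Log2 change, ligated minus sham (x axis), read by each of the 26 probes (rows, grouped by gene), with bars for the standard error of the limma fit and filled points for an adjusted p at or under 0.05. All 11 FN1 and 4 POSTN probes are filled and lie between 1.76 and 3.21, the 4 THBS1 probes are open, and the fitted VTN value is no measure of fold because its sham arrays were not above background.

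CTGF, a CCN protein that promotes matrix production, rose 8.02-fold on its single probe. It read 1.59, 1.77 and 1.70 in sham against 5.92, 4.77 and 3.37 after ligation. The sham arrays were within 0.18 of each other, and the ligated arrays spread over 2.55, all above sham. The change was 3.00 ± 0.60 with a limma adjusted p of 0.0321. This call rests on every array except ligated 3. It was lost when any of the other 5 was left out, with limma adjusted p-values up to 0.114 and changes of 2.39 to 3.04, and it was kept without ligated 3 at 3.66. It was also lost with sham 2 and sham 3 averaged into 1 sample (limma adjusted p = 0.106).

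CYR61, the CCN protein closest in use to CTGF as a mechanical readout, read 3.45, 2.68 and 2.56 in the sham group and 3.94, 4.67 and 3.47 in the ligated group. Ligated 3 exceeded sham 1 by only 0.02, so the groups barely part. The change was 1.13 ± 0.38 (limma adjusted p = 0.12) and passed in none of the fits that left out an array. The change of CTGF exceeded that of CYR61 by 1.87, at the smallest p the exact permutation test allows (p = 0.1, adjusted p = 0.4 over the 4 contrasts), so the difference between these 2 genes did not pass.

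**Figure D3:**
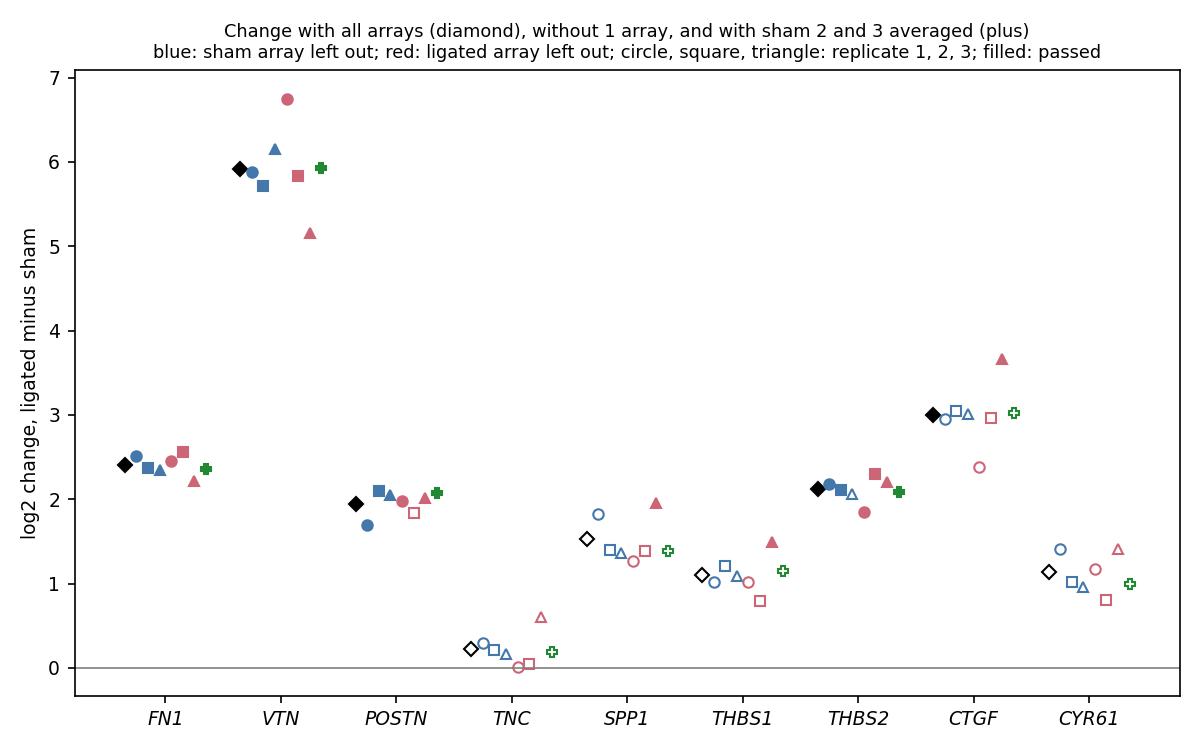
Log2 change, ligated minus sham (y axis), of each gene with all 6 arrays (diamond), with 1 array left out (blue for a sham and red for a ligated array, circle, square and triangle for replicates 1, 2 and 3) and with sham 2 and 3 averaged (plus), filled where the adjusted p was at or under 0.05. FN1 and VTN are filled throughout, CTGF is filled with all arrays and without ligated 3 alone, and SPP1 and THBS1 are filled without ligated 3 alone.

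Ligated 3 was the lowest ligated array for 6 of the 9 genes (POSTN, TNC, SPP1, THBS1, CTGF and CYR61) and the highest for VTN. On FN1 it was the lowest ligated array on all 5 upstream and 4 of 6 downstream probes, and the highest on the other 2, which include the probe that stands for the gene. Every one of the 9 changes was above 0 in all the fits run, including those that left out an array and those with another scaling. FN1 passed in all 6 fits that left out 1 array, with limma adjusted p-values up to 0.0298. VTN did too (up to 0.0482), but as its sham values lie below background and it was tested through the ligated group alone, this says nothing about stability.

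Of 11 integrin subunits tested, which bind these proteins or other matrix, 1 rose, 1 fell and 9 did not pass, with a median change of 0.07. Counts this small are close to the 6.12% of all named genes that passed as higher and the 2.7% that passed as lower. The riser was ITGA2, a collagen and laminin receptor subunit, at 2.65 ± 0.55 (limma adjusted p = 0.0363). The faller was ITGA8, a smooth muscle subunit whose integrin binds fibronectin, vitronectin and osteopontin through RGD, at -1.71 ± 0.24 (limma adjusted p = 0.0113). ITGA5, which with ITGB1 forms the classical fibronectin receptor, stood at 1.47 and did not pass (limma adjusted p = 0.0693). The values of ITGAV (0.78) and ITGB3 (0.74), the vitronectin receptor, and of ITGB1 (-0.32) did not pass either. ITGA5, ITGAV, ITGB3 and ITGB1 were named after their values were seen. Without sham 3 no integrin subunit passed. Among 8 other receptors and binding partners 3 rose and none fell, with a median of 1.00. These were ANXA2, a binding partner of TNC, at 1.93, DPP4, which binds fibronectin, at 1.88, and CD44, a hyaluronan and osteopontin receptor, at 1.41 (limma adjusted p = 0.0236, 0.0346 and 0.0468). None of the 8 passed without sham 3.

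Of 11 other matricellular genes tested, 5 rose and none fell, with a median of 1.44. WISP1, a CCN protein, rose by 3.00 ± 0.45 (limma adjusted p = 0.0146). TNN, a tenascin, rose by 2.57 ± 0.32 and FBLN5, an elastic fibre fibulin, by 1.73 ± 0.27 (limma adjusted p = 0.00866 and 0.0165). The other 2 that passed, named after their values were seen, were SMOC2 at 1.77 and THBS3 at 1.61. The number that passed fell to 2 without sham 3 and to 1 with sham 2 and sham 3 averaged.

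In the YAP, TEAD and SRF list 1 of 9 genes rose and the median was 0.00. It was ANKRD1, a mechanically induced nuclear protein, at 4.41 ± 0.91 (limma adjusted p = 0.0353), on all 5 of its probes, but it was well above background on only 1 of 3 sham arrays. In the TGF-beta list 1 of 9 rose, the receptor TGFBR2 at 2.18 ± 0.35 (limma adjusted p = 0.0170), with a median of 0.27. A single call among 9 genes is close to the 6.12% of all named genes that passed as higher. Neither of these lists had a gene past the threshold without sham 3. None of 10 focal adhesion genes passed (median 0.00), where LIMS1 gave 0.55 and ILK -0.85, with 1 passing without ligated 3.

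The list of fibroblast and meningeal markers had 5 of 10 genes higher and none lower, with a median of 1.74. Its summed scaled signal was 800 to 897 times the 75th percentile in sham and 1828 to 2036 times it in ligated arrays, and its part in the results above was not tested. LUM (2.38), COL1A1 (3.02) and COL1A2 (1.73) passed with the smallest p, and smooth muscle cells of remodelling arteries also express collagens. Immediate early and dissociation stress genes, to which CTGF and CYR61 are often added, had 2 of 10 higher, DUSP1 at 3.02 and IER3 at 1.35, none lower and a median of -0.28. Their summed signal overlapped between the groups, at 136 to 171 in sham and 121 to 259 in ligated arrays, and their part was not tested. Contractile smooth muscle markers, which check the label, had a probe for 14 of 15 genes, all 14 tested, with 2 lower (SMTN -1.77, DES -1.12), none higher and a median of -1.03. Their summed signal of 1723 to 2822 in sham was above the 739 to 1694 of the ligated arrays, and its part in the results above was not tested. Without sham 3, 2 fibroblast and meningeal markers, 1 contractile gene and no immediate early gene passed.

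Blood cells and liver are other known sources of these proteins. Of 9 macrophage markers none passed (median 0.23), their sum was 10.68 to 22.5 in sham and 11.1 to 36.2 in ligated arrays, and ITGAM came closest at 1.05. Of 10 platelet markers, cells that store THBS1 and fibronectin, 2 were tested and neither passed. Their sum was 0.272 to 0.714 in sham and 0.260 to 0.806 in ligated arrays. Of 9 listed liver genes, the main source of plasma vitronectin, 3 were tested and 1 rose, APOB at 1.48 (limma adjusted p = 0.0222). ALB, APOA1, FGA, FGB and FGG had probes that were not above background on enough arrays to be tested. Erythroid markers spread over 28.4 to 665 in the ligated arrays and 188 to 388 in sham, and none of 4 passed. None of the markers of pericytes (6), endothelium (7), neutrophils (6), lymphocytes (7) or neurons and glia (2) passed, with medians of -0.25, 0.13, 0.27, -0.76 and -1.16. The pericyte marker PDGFRB gave 2.77 (limma adjusted p = 0.0580). In this bulk RNA, more cells of a kind and more RNA per cell cannot be told apart. Proliferation genes, listed beside these as a further sign of remodelling, had 11 of 14 higher, with a median of 2.39. Among them CDK1 (3.96), UBE2C (4.06) and BUB1 (3.32) had the smallest p. With the filter on all 6 arrays, which keeps only probes well above background on each, 7 of these genes passed, with a median of 2.18.

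**Figure D4:**
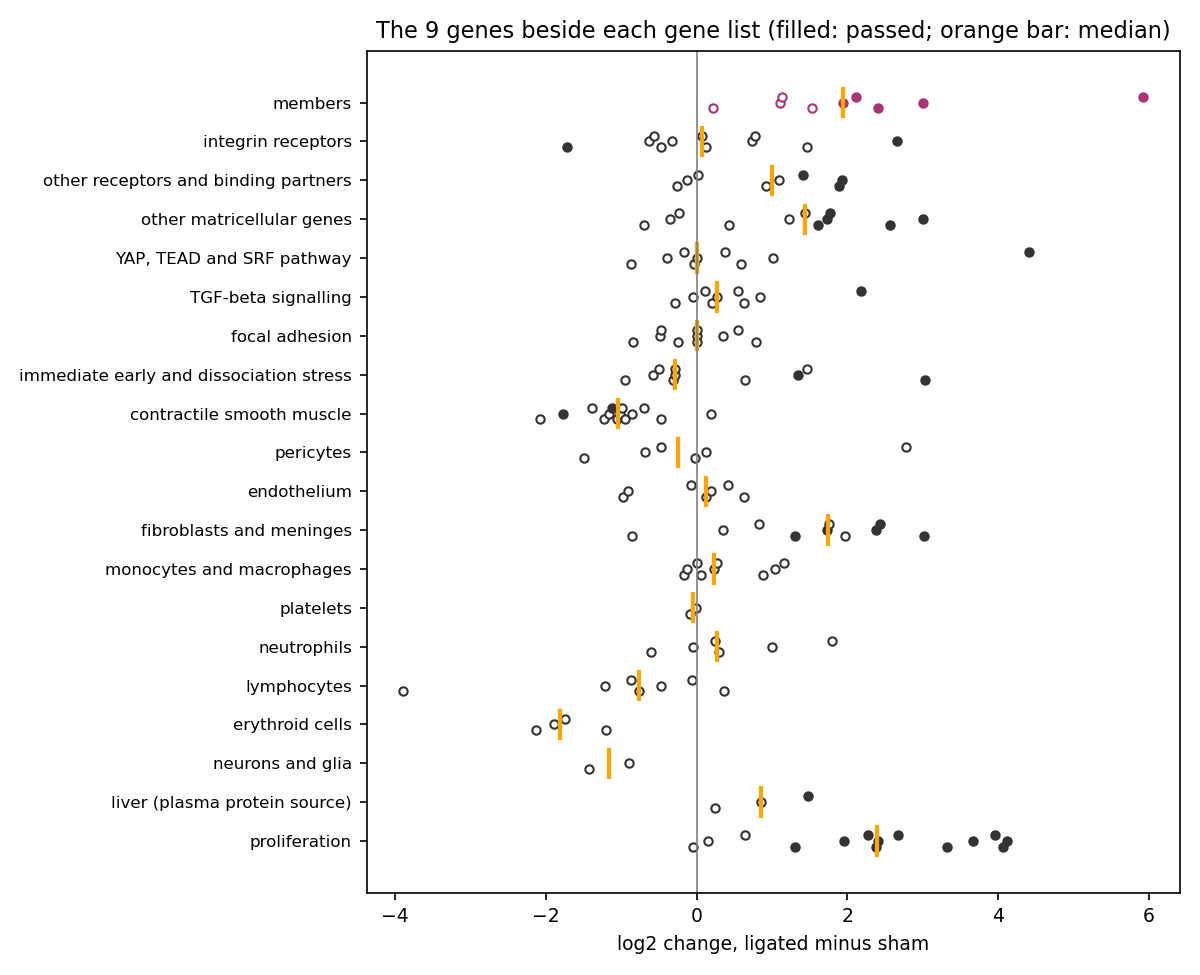
Log2 change, ligated minus sham (x axis), of the 9 genes (purple) and of each tested gene in 19 lists (rows), with filled points for an adjusted p at or under 0.05 and orange bars for the median of the row. Proliferation genes (median 2.39), fibroblast and meningeal markers (1.74) and other matricellular genes (1.44) lie mostly to the right as the 9 genes do, contractile genes (-1.03) mostly to the left, and integrin receptors (0.07) around 0.

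For each gene the 2 named genes with the most similar profile over the 6 arrays were found by the root mean square difference of log2 values centred on the gene's own mean, over 7841 candidates. FN1 was nearest to MATN2, a matrilin of the matrix (0.17), and BRCA1 (0.20). For POSTN, COL8A2, a short-chain collagen of vessels, lay at 0.11. THBS2 was nearest to HEG1 (0.16) and IQGAP3 (0.16). THBS1 was nearest to the receptor CD44 (0.19) and ENPP1 (0.20). CTGF was nearest to PDGFRB (0.25) and BDKRB1, the inducible bradykinin receptor (0.27), both also highest in ligated 1. CYR61 was nearest to ACSL3 (0.12) and NEDD9 (0.12), SPP1 to BMP6 (0.10) and GLIS2 (0.13), and TNC to HERPUD1 (0.09) and MLF2 (0.10). VTN had no close neighbour, the nearest being TNFAIP6, a hyaluronan-binding protein, at 0.94 and SCGB1D1 at 1.14. With 6 arrays in 2 groups, the measure depends in large part on the size of the group difference.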

How the data were processed

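The members and the 19 gene lists were chosen with earlier results of these data known. The submitters' processing notes name Agilent Feature Extraction 10.7. The authors' deposited processed signal is, per the file headers, an intensity with the background subtracted within an array and no scaling across arrays, while the raw and background columns are unprocessed intensity. The deposited flags (well above background, outlier) are of the kind other, each 0 or 1. The authors' deposited value table is in log2 units by a step not given in the sources used here.

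From the processed signal, outlier spots were dropped (2 to 19 an array), spots of a probe were averaged in log2, and each array's 75th percentile (signals of 158 to 253) was subtracted. A probe was tested when well above background on at least 3 of 6 arrays, which kept 27410 of 43603. The two-sided test was limma 3.58.1 under R 4.3.3 on 4 residual degrees of freedom plus those of the variance moderation, and p-values were adjusted by Benjamini-Hochberg over every tested probe. The code was tested on simulated data. Differences between changes were tested with exact permutation tests over the arrays. Names came from the files through a RefSeq table (assembly mOryCun1.1) that served for no coordinates, and 23760 probes had 1 symbol, 314 several and 19529 none. Named genes were all 9 members, up to 3 passing genes of each list with the smallest p (up to 2, as values, where none passed), and the 2 nearest profiles, of which 1 is not reported here. Same-numbered arrays deviated together in 2 of 3 pairs (correlations of 0.43, -0.57 and 0.58), so numbers were not taken to pair the samples. The limma p-values set the group difference against the spread between samples within a group. As each group had its own slide, that spread holds no variation between slides. The planned searches for RGD in proteins and for TEAD and CArG motifs in promoters were not run, as no protein or promoter sequence was used here. Alternatives were normexp (offset 50), also without spots whose background exceeded 5 times the median, median centring, quantile normalization, the deposited table, other filters and variances, array weights, the replicate number or scan day as a block, sham 2 and 3 averaged, the mean of a gene's probes, and each array left out.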

Additional observations from a re-analysis of the deposited data

Results flagged for a closer look

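Probes without a gene name, which no comparison above uses, gave signal at 2 of the loci. At the FN1 locus 3 such probes lie between the named groups, on the same strand, at chr7:156718569-156722289. Their log2 changes were 2.52 for A_04_P013541, 2.71 for A_04_P013542 and 2.66 for A_04_P013543, all 3 passed (limma adjusted p = 0.0107, 0.0107 and 0.00677), and in each the ligated arrays all exceeded the sham arrays. A_04_P013542 read 1.38, 1.73 and 1.76 in sham and 5.11, 4.14 and 3.75 after ligation, highest in ligated 1 and lowest in ligated 3 as on the upstream FN1 probes. At the THBS1 locus 4 unnamed probes lie downstream of the named ones on the same strand, at chr17:32568164-32568366, and none passed. Of these, A_04_P027341 with a change of 0.68 and A_04_P027344 with 0.53 had no overlap between the groups, with ligated above, as had 17.5% of all tested probes. Groups of 3 arrays were not tested for a single array that stands apart.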

How the results depend on the processing

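Every change of the 9 genes kept its sign under every alternative. With normexp background correction no probe passed in limma (615 had an unadjusted p under 0.05), nor did any of the 9 genes or the listed genes (0 of each, with 4 and 23 at an unadjusted p under 0.05), and the changes were 2.31 for FN1, 1.73 for VTN, 1.18 for POSTN, 0.83 for THBS2 and 2.49 for CTGF (each with an adjusted p of 0.789). Without the spots of high background the same correction called 2381 probes, 5 of the 9 genes and 34 listed genes, against 2293, 5 and 33 as reported. With array weights the counts were 6033 probes, 8 genes and 57 listed genes, with SPP1 at 1.90, THBS1 at 1.22 and CYR61 at 1.54 (limma adjusted p = 0.0100, 0.0323 and 0.0180). Without a filter on dim probes 1518 probes passed. With the filter on all 6 arrays VTN was not tested. The replicate block, on numbers not taken to pair the samples, gave 1289 probes, of which 1135 were among those reported, and changed no call among the 9 genes (5 passed). Scan day as a block, where day 2 held sham 3 alone, amounts to the fit without sham 3 and is no separate check. It gave 548 probes, 3 genes and 15 listed genes, and ended the calls of THBS2 (2.06, limma adjusted p = 0.0507) and CTGF (3.01, limma adjusted p = 0.114). Averaging sham 2 and 3 gave 590 probes, 15 listed genes and 4 genes, with CTGF at 3.03 (limma adjusted p = 0.106). The cause of these shifts was not tested. Leaving out 1 array gave 548 to 2275 probes, 3 to 7 of the 9 genes and 15 to 38 listed genes. The lowest counts of probes came without sham 3 (548), sham 2 (592) and ligated 2 (745), and 1208 passed without ligated 1. Over those fits POSTN ran from 1.69 to 2.09, THBS2 from 1.85 to 2.30, CTGF from 2.39 to 3.66, SPP1 from 1.26 to 1.95 and THBS1 from 0.80 to 1.5. Higher calls made up 67.8% of the probes that passed as reported. With median centring, which moved the median change over all tested probes to -0.19, the share was 52.2%. It was 56.4% with normexp without high background and 54.7% with array weights. The share was higher with the replicate block (81.6%), with sham 2 and 3 averaged (86.6%), with scan day as a block or without sham 3 (87.2%), without sham 2 (86.5%), without ligated 2 (80.5%) and with no filter on dim probes (78.4%).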
